A study of Mus musculus with 12 samples.

Results

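The genes described here encode matricellular proteins, which are secreted into the extracellular matrix but mainly signal to cells rather than bear load, together with fibronectin, a fibrillar glycoprotein of the same matrix. The members were chosen by name, with earlier results of these data known: Thbs1, Thbs2, Tnc, Postn, Ccn1, Ccn2, Ccn4, Sparc, Fn1 and Spp1. A gene counted as measured if a transcript cluster of the array carried its symbol and no other. That held for 9 of the 10 members, of 19938 genes with such a cluster, and each of the 9 had 1 cluster. Spp1, the gene of osteopontin, was not analysed here.

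RNA came from C2i-Myog, a stable line derived from C2C12 mouse myoblasts in which doxycycline turns on a cDNA for mouse myogenin (Myog) with a Flag tag. Myogenin is a transcription factor that drives terminal muscle differentiation. All 4 groups were held for 48 h in differentiation medium with 1% horse serum, insulin at 10 µg/mL and transferrin at 10 µg/mL, and each had 3 arrays. Control cells had no further agent. The Dox group had doxycycline at 0.2 µg/mL, the SB group had SB203580 at 10 µM, and the SB+Dox group had both. SB203580 blocks the p38α and p38β mitogen-activated protein kinases. It was the only inhibitor given, so effects of blocked p38 and any other effects of the agent cannot be told apart. The sources used here name neither the promoter behind the transgene nor whether the line is 1 clone. Doxycycline was not given to cells lacking the transgene, so its own effect and that of exogenous Myog cannot be told apart. The label of the control arrays names no differentiation step, and their 48 h rests on the treatment protocol attached to every sample.

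Matricellular proteins bind integrins, proteoglycans and growth factors, and their genes are switched on in remodelling tissue. Thrombospondin 1 (Thbs1) can activate latent TGF-beta and limits vessel growth, and thrombospondin 2 (Thbs2) has a similar build. The CCN proteins are modular, cysteine-rich regulators of adhesion. Ccn1 and Ccn2 are textbook targets of the transcriptional co-activators YAP and TAZ, which bind DNA through TEAD factors, and Ccn2 also answers to TGF-beta. In muscle, fibronectin and tenascin C (Tnc) belong to the matrix that surrounds regenerating fibres and their stem cells.

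RefSeq's GRCm38.p6 promoter windows, which span 250 bases before and 50 bases after a transcript start, were at hand for 6 of the 10 members with 9 starts among them. The windows of 3 genes are shown: Tnc and Postn, which fell together under the inhibitor, and Ccn1, whose fall did not pass the test. For Tnc and Postn the downstream of 2 listed starts is given. Capitals mark matches on either strand to 3 motifs. The core letters bound by TEAD factors are CATTCC. The letters read by SMAD proteins are CAGACA, printed as TGTCTG where the match is on the other strand. The letters of a TATA box are TATAAA, marked wherever they stood in the window. These matches do not overlap one another.
Ccn1, chr3:145649936-145650235, minus strand: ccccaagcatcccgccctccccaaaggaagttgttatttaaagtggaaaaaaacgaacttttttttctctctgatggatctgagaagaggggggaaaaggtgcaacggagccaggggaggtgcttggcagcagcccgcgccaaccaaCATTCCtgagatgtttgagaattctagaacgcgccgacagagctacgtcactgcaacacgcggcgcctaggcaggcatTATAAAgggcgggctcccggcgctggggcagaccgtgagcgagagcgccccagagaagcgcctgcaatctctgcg
Tnc, chr4:64046887-64047186, minus strand: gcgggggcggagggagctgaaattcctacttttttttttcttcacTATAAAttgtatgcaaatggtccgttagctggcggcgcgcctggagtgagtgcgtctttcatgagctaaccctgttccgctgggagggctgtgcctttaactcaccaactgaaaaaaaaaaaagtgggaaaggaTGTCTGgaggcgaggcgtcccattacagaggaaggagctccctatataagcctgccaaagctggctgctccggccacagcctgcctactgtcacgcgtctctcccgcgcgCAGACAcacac
Postn, chr3:54360857-54361156, plus strand: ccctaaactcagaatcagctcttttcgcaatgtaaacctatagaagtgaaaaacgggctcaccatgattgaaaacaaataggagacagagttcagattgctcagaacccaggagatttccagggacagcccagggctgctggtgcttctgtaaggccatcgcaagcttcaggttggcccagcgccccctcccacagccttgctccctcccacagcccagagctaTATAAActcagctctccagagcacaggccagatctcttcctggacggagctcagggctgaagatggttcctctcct
Counted from 1 at the 5′ end of the window, CATTCC stood at bases 148 to 153 in Ccn1 and TATAAA at bases 226 to 231. In Postn, TATAAA stood at bases 225 to 230. In Tnc, CAGACA letters stood at bases 180 to 185 and 290 to 295. Its TATAAA stood at bases 46 to 51, farther from the start, which follows base 250, than in Ccn1 and Postn. The letters tatataag nearer the start of Tnc are no exact match and are unmarked. Over all 32851 promoter windows of the table, 14.7% held CATTCC, 21.0% CAGACA and 13.6% TATAAA. None of the 3 windows shown held TGANTCA (an AP-1 site, in 7.81% of windows), the CArG box of serum response factor (1.63%), the E-boxes CAGCTG (16.3%) and CACCTG (20.2%), or CCAAT (37.4%). A match describes letters and shows no binding.

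Values are log2 RMA signals, one per cluster and array, so a difference of 1 is a 2-fold change. A gene was called at an adjusted p under 0.05 from limma fitted across all 21789 one-symbol clusters, with Benjamini-Hochberg adjustment within each comparison. SE is the standard error of a log2 change, and n is 3 arrays per group throughout. Nothing in the labels says that replicates were separate cultures, so p-values measure the spread between these arrays, which may be technical. The members' values ran from 6.27 to 12.03, above every array's median of at most 5.06. No background level was measured.

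The identity of the cells was checked first. All 8 skeletal muscle lineage markers had group means above the highest array median, from 5.69 for Myf5 in Dox to 11.45 for Des in SB+Dox. Of 23 measured markers of fibroblasts, endothelium, leukocytes, adipocytes and cartilage or bone, 18 stayed at or below that median in all groups. The exceptions were Col6a3, Col2a1, Thy1, Cd68 and Plin1, of which the last 3 did not exceed 5.29. None of the 23 was called in SB against control, but with 6.38% of all clusters called this says little about them. Of the 8 muscle markers, 5 were called lower and 1 higher there, against 3.87% and 2.51% of all clusters. The fibroblast marker Col6a3 averaged 8.69 in the control arrays, 7.68 with doxycycline, 8.36 with the inhibitor and 7.51 with both agents. It was called lower in Dox and in SB+Dox against control and in SB+Dox against SB (limma adjusted p = 4.93e-04, 1.72e-04 and 0.00208). In SB+Dox against SB, 2 of the 8 muscle markers were called higher and 0 lower, against 4.4% and 2.71% of all clusters. These were Ttn and Ckm, by 1.18 and 1.00 on the log2 scale (limma adjusted p = 0.00399 and 0.0214). The other 6 did not pass. Among them Myog, Des and Chrna1 changed by 0.64, 0.31 and 0.30, and Myod1, Myf5 and Cdh15 by -0.485, -0.343 and -0.166. The part of these markers in the members' changes was not tested. On the second principal component of all clusters SB replicate 3 scored -8.47, away from SB replicates 1 and 2 (20.26 and 11.74). Myog, the gene whose cDNA the line carries, averaged 9.91 ± 0.26 in the control arrays and 10.37 ± 0.05 after doxycycline (log2 signal, SD, n = 3). With the inhibitor it averaged 7.70 ± 0.68, and with both agents 8.33 ± 0.30. Its differences with doxycycline did not pass the test, and the sources do not say whether its probes read the transgene.

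SB against control addresses what SB203580 did to differentiating cells. Most of these matrix genes fell: 7 of the 9 measured members were called lower and 0 higher, against 3.87% of all clusters called lower and 2.51% higher (6.38% in either direction). The members were chosen with earlier results known, so such a count beside the share is no test, here or in later comparisons. Thbs1 fell 15.3-fold, Tnc 6.59-fold, Postn 3.7-fold, Ccn2 2.54-fold, Fn1 2.21-fold, Ccn4 1.79-fold and Thbs2 1.37-fold. Ccn1 and Sparc did not pass. The median log2 change was -1.15 over the 9 members and 0.03 over all genes with 1 cluster each. In whole-culture RNA, fewer cells of a type and less RNA per cell cannot be told apart.

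**Figure D1:**
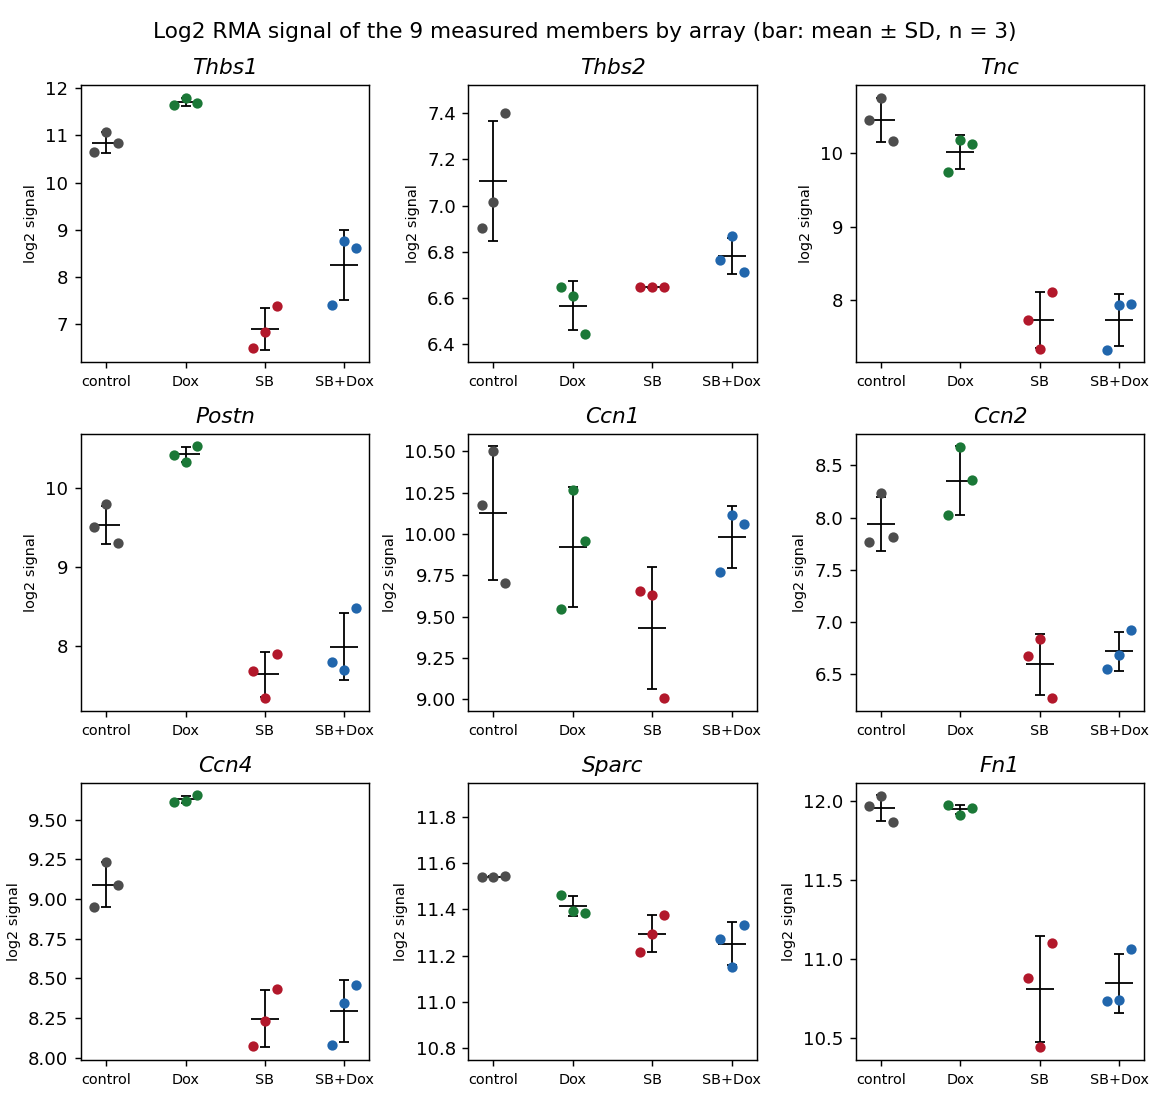
Log2 RMA signal (vertical axis, scaled separately for each gene) of the 9 measured members in each array of the 4 groups; points are arrays, and bars are the mean ± SD of 3 arrays. For Thbs1, Tnc, Postn, Ccn2, Ccn4 and Fn1 the 6 arrays with SB203580 lie below the 6 arrays without it, as they do by under 0.01 for Sparc, whereas Ccn1 and Thbs2 overlap.

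Thbs1 had the widest range of the members. Its log2 signal was 10.64, 11.07 and 10.83 in the control arrays, 11.64, 11.80 and 11.67 with Dox, 6.50, 6.84 and 7.38 with SB, and 7.40, 8.77 and 8.61 with SB+Dox. The order from lowest to highest was SB, SB+Dox, control and Dox, with no overlap between neighbours, though SB+Dox replicate 1 lay close to SB replicate 3. In SB against control the log2 change was -3.94 (SE 0.28, limma adjusted p = 2.80e-06). With doxycycline in the medium the inhibitor's change was of like size, -3.45 (SE 0.28, limma adjusted p = 2.00e-06).

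Thbs2, the close relative, moved little and in another pattern. It read 6.90, 7.01 and 7.40 in control, 6.65, 6.61 and 6.44 in Dox, 6.65, 6.65 and 6.65 in SB, and 6.76, 6.87 and 6.71 in SB+Dox. Every control array was above every other array, and Dox replicate 1 equalled the lowest SB array. The fall in SB was -0.46 (SE 0.12, limma adjusted p = 0.0283). It no longer passed when control replicate 3 (-0.31, limma adjusted p = 0.0927), SB replicate 1 (0.072) or SB replicate 2 (0.0901) was left out. In SB+Dox against Dox its change was 0.22 (SE 0.12, limma adjusted p = 0.328).

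Tnc, which encodes tenascin C, an anti-adhesive glycoprotein of embryonic and injured tissue, separated the arrays by inhibitor. Its signal was 10.44, 10.75 and 10.16 in control and 9.74, 10.17 and 10.12 in Dox. With the inhibitor it was 7.73, 7.35 and 8.11 in SB and 7.33, 7.94 and 7.95 in SB+Dox. Control and Dox overlapped, as did SB and SB+Dox, with a gap of more than 1 between the pairs. The log2 change was -2.72 in SB against control (SE 0.21, limma adjusted p = 4.76e-06) and -2.27 in SB+Dox against Dox (SE 0.21, limma adjusted p = 6.05e-06).

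Postn encodes periostin, an integrin ligand that binds collagen and tenascin C. It read 9.5, 9.79 and 9.30 in control, 10.41, 10.33 and 10.52 in Dox, 7.69, 7.33 and 7.90 in SB, and 7.80, 7.69 and 8.48 in SB+Dox. Dox was highest in all 3 arrays, control came next, and the SB and SB+Dox arrays overlapped. Its log2 change was -1.89 in SB against control (SE 0.19, limma adjusted p = 3.66e-05) and -2.43 in SB+Dox against Dox (SE 0.19, limma adjusted p = 1.41e-06).

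The 3 CCN genes did not respond as 1 block. Ccn2, the gene of connective tissue growth factor, read 7.77, 8.24 and 7.82 in control, 8.02, 8.68 and 8.36 in Dox, 6.68, 6.84 and 6.27 in SB, and 6.55, 6.68 and 6.93 in SB+Dox. It was lower in every array with the inhibitor than in every array without it. Its log2 change was -1.34 in SB against control (SE 0.18, limma adjusted p = 3.89e-04) and -1.63 in SB+Dox against Dox (SE 0.18, limma adjusted p = 3.53e-05). Ccn4, known also as Wisp1 and first described as a target of Wnt signalling, read 8.95, 9.23 and 9.09 in control, 9.61, 9.62 and 9.65 in Dox, 8.07, 8.23 and 8.44 in SB, and 8.08, 8.34 and 8.46 in SB+Dox. Its changes were -0.84 in SB against control (SE 0.12, limma adjusted p = 5.74e-04) and -1.33 in SB+Dox against Dox (SE 0.12, limma adjusted p = 4.66e-06).

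Ccn1, also known as Cyr61, an integrin ligand and a fast-responding gene of serum-stimulated cells, was the most scattered of the 3. Its arrays read 10.18, 10.50 and 9.70 in control, 9.54, 10.27 and 9.96 in Dox, 9.65, 9.63 and 9.01 in SB, and 9.77, 10.12 and 10.06 in SB+Dox. All 3 SB arrays were below all 3 control arrays, but the highest SB array and the lowest control array differed by little. The change in SB against control was -0.70 (SE 0.22, 95% interval -1.17 to -0.23, limma adjusted p = 0.0807). It passed in a limma fit blocked on replicate number (adjusted p = 0.0267) and in one without control replicate 3 (-0.91, adjusted p = 0.0317). In SB+Dox against Dox its change was 0.06, with a 95% interval of -0.41 to 0.53 (limma adjusted p = 0.919).

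Because CCN genes and thrombospondins are families, the difference between relatives was taken within each array and compared between the 6 arrays with the inhibitor and the 6 without it. These 4 pairs and their test, an exact two-sided permutation of arrays within each doxycycline condition (400 arrangements, smallest possible p = 0.005), were chosen after the values were seen. The p-values therefore only describe how the arrays separated, and adjustment over the 4 pairs does not allow for that choice. The inhibitor lowered Thbs1 by 3.57 more than Thbs2 on the log2 scale (exact permutation p = 0.005, adjusted p = 0.01 over the 4 pairs). The Ccn1 minus Ccn2 difference was 1.17 higher with the inhibitor (exact permutation p = 0.005, adjusted p = 0.01), at 0.65 without doxycycline and 1.69 with it. Ccn2 against Ccn4 differed by less, -0.40 (exact permutation p = 0.015, adjusted p = 0.02), and lost the call without control replicate 2 or 3 (adjusted p = 0.065 and 0.055) or SB+Dox replicate 2 (0.0533). Ccn1 against Ccn4 shifted by 0.77 (exact permutation p = 0.03, adjusted p = 0.03), the mean of 0.15 without doxycycline and 1.39 with it. It lost the call without control replicate 3, Dox replicate 1, SB replicate 1, SB replicate 2 or any SB+Dox replicate (exact permutation, adjusted p = 0.05 to 0.075).

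**Figure D2:**
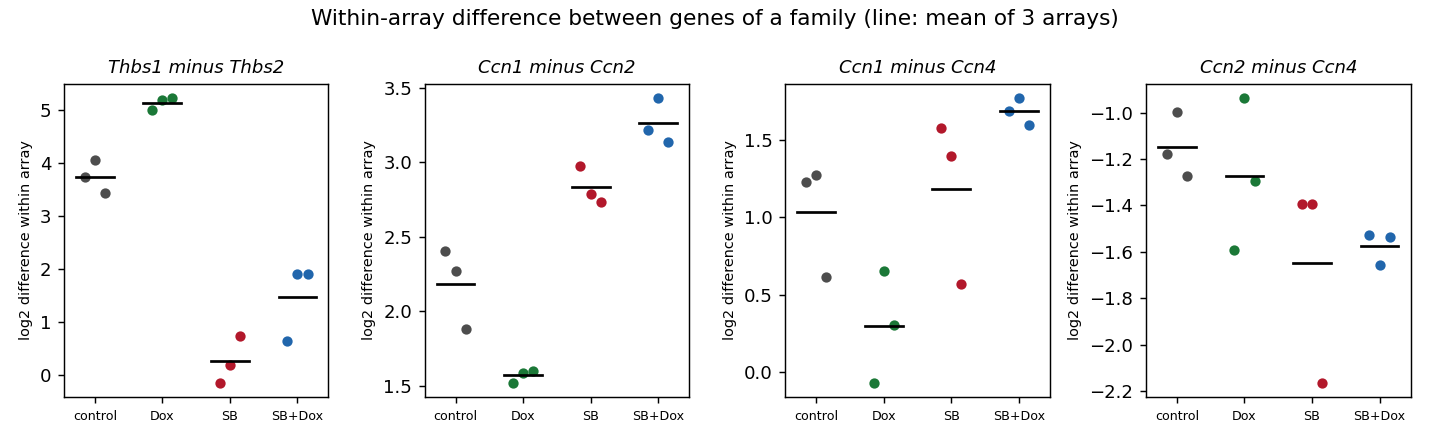
Within-array log2 difference (vertical axis) between the members of 4 gene pairs in the 4 groups; points are arrays and lines are means of 3. Thbs1 minus Thbs2 falls from between 3.43 and 5.23 in arrays without SB203580 to between -0.15 and 1.90 with it, while Ccn1 minus Ccn2 is at least 2.73 in arrays with it and at most 2.41 without.

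Sparc, whose protein (osteonectin) binds collagen and calcium, was nearly flat. It read 11.54, 11.54 and 11.54 in control, 11.46, 11.39 and 11.39 in Dox, 11.22, 11.29 and 11.38 in SB, and 11.27, 11.15 and 11.33 in SB+Dox. Control was the highest group in all arrays. The change in SB against control was -0.25 (SE 0.09, 95% interval -0.43 to -0.06, limma adjusted p = 0.117), and in SB+Dox against control it was -0.29 (SE 0.09, limma adjusted p = 0.0663). The latter passed in 6 of 24 alternative fits, with adjusted p between 0.0113 and 0.26 over all of them.

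Fn1 encodes fibronectin, whose fibrils cells assemble through integrins and on which other matrix proteins are laid down. It read 11.97, 12.03 and 11.86 in control, 11.97, 11.91 and 11.95 in Dox, 10.88, 10.44 and 11.10 in SB, and 10.73, 10.74 and 11.06 in SB+Dox. The control and Dox arrays overlapped each other and lay above all arrays of the other groups. Its log2 change was -1.15 in SB against control (SE 0.14, limma adjusted p = 1.86e-04) and -1.10 in SB+Dox against Dox (SE 0.14, limma adjusted p = 1.30e-04).

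SB+Dox against Dox asks for the inhibitor's effect in the presence of doxycycline. Here 6 of 9 members were called lower and 0 higher, against 3.43% of clusters called lower and 6.97% higher (10.4% in either direction): Thbs1, Tnc, Postn, Ccn2, Ccn4 and Fn1. Thbs1 was 10.9-fold, Postn 5.39-fold, Tnc 4.82-fold, Ccn2 3.1-fold, Ccn4 2.52-fold and Fn1 2.14-fold lower. The same 6 genes passed in each of 24 alternative fits. The median change of the 9 was -1.33 on the log2 scale, beside -0.03 over all genes.

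SB+Dox against SB asks whether doxycycline restored these genes while SB203580 was present. Only Thbs1 passed among the 9, rising 2.55-fold, against 4.4% of clusters called higher and 2.71% lower (7.11% in either direction). Its log2 change was 1.35 (SE 0.28, limma adjusted p = 0.00841), and it was 0.90, 1.93 and 1.23 between same-numbered arrays. The call was lost without SB+Dox replicate 3 (1.18, limma adjusted p = 0.0523), and without SB replicate 3 the change was 1.59 (adjusted p = 0.00418). The other 8 members had log2 changes from -0.04 for Sparc to 0.55 for Ccn1, with adjusted p from 0.162 upward. For Tnc the change was 0.01 with a 95% interval of -0.43 to 0.46, and for Fn1 0.04 with an interval of -0.26 to 0.34. Postn changed by 0.35 (interval -0.06 to 0.75, limma adjusted p = 0.319).

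The share of the log2 distance from SB back to control was taken only for the 7 members called in SB against control. SB+Dox cells regained 34.3% for Thbs1, 29.4% for Thbs2, 18.5% for Postn, 9.24% for Ccn2, 5.62% for Ccn4, 3.39% for Fn1 and 0.41% for Tnc. Ccn1 and Sparc were not called there and were given no share. Ccn1 averaged 10.13 in control, 9.43 in SB and 9.98 in SB+Dox, which is near control. Sparc averaged 11.54, 11.30 and 11.25 in these groups. These shares carry no test, since the same SB arrays enter both distances. Leaving out 1 array at a time moved the share between 27.9% and 45.2% for Thbs1, between 19.9% and 43.3% for Thbs2 and between -14.9% and 14.3% for Fn1. For Postn the share was 5.53% without SB+Dox replicate 3, 11.2% without SB replicate 2 and at most 26.3%. SB+Dox against control gives what remained: 6 of 9 members were called lower, and 0 higher, against 2.42% of clusters called lower and 2.84% higher (5.26% in either direction). Thbs1 was still 6.01-fold below control and Tnc 6.54-fold (limma adjusted p = 8.53e-05 and 4.49e-06), with Postn 2.91-fold, Ccn2 2.33-fold, Fn1 2.16-fold and Ccn4 1.74-fold below. Thbs2 was 0.32 lower on the log2 scale with limma adjusted p = 0.153.

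**Figure D3:**
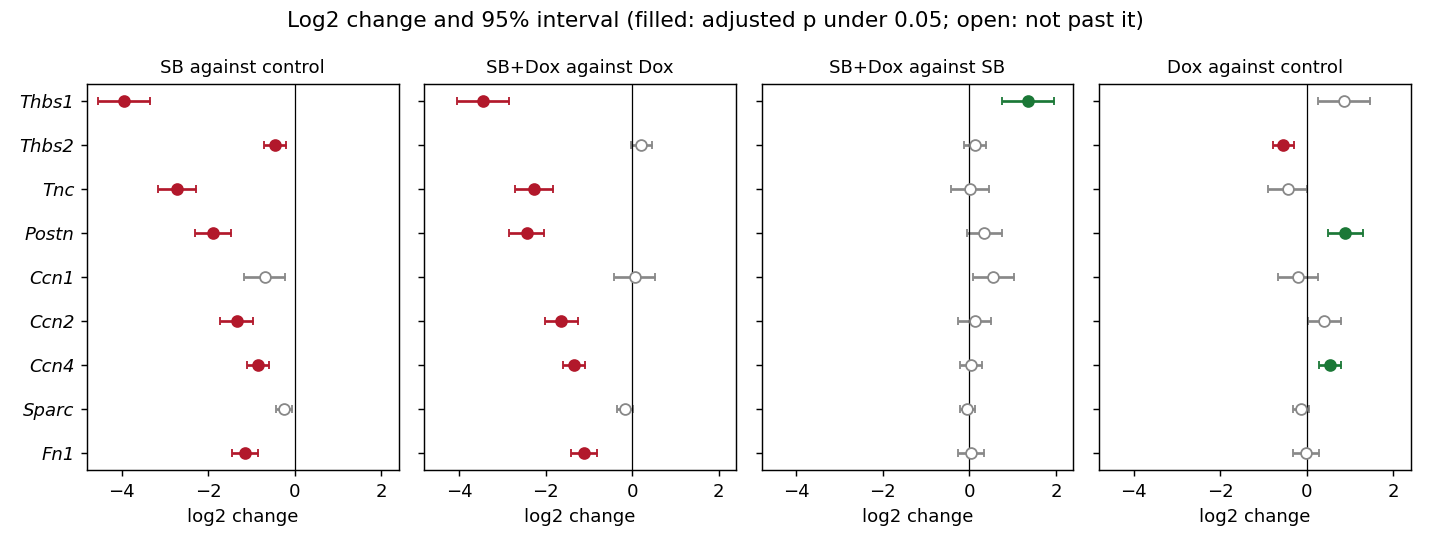
Log2 change (horizontal axis) of the 9 members in 4 comparisons, with 95% intervals from limma; filled points passed an adjusted p of 0.05 (red lower, green higher) and open grey points did not. The 2 inhibitor comparisons on the left hold 7 and 6 lower members, doxycycline with the inhibitor holds 1 higher member, Thbs1 at 1.35, and doxycycline alone holds Postn and Ccn4 higher and Thbs2 lower.

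Dox against control asks what doxycycline did in cells without SB203580. It moved 3 of the 9 members past the threshold, 2 higher and 1 lower, against 1.43% of clusters called higher and 3.88% lower (5.31% in either direction). Postn rose by 0.89 on the log2 scale, 1.85-fold (SE 0.19, limma adjusted p = 0.0106), and Ccn4 rose by 0.54, 1.45-fold (SE 0.12, limma adjusted p = 0.0131). Thbs2 fell by 0.54, 1.45-fold (SE 0.12, limma adjusted p = 0.0115). All 3 calls were lost without Dox replicate 3, at limma adjusted p = 0.0537 for Postn, 0.0561 for Ccn4 and 0.0678 for Thbs2. Postn was also lost without control replicate 3 (limma adjusted p = 0.0558) and Ccn4 without control replicate 1 (0.078).

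Thbs1 stood 0.86 higher in Dox than in control in all 3 arrays (SE 0.28), but limma adjusted p was 0.113. In a fit blocked on replicate number it was 0.0247, and it also passed with only these groups in the fit (0.00278), with array weights (0.0479) and without SB+Dox replicate 1 (0.0098). Ccn2 was 0.41 higher (limma adjusted p = 0.292), Tnc 0.44 lower (0.353), Ccn1 0.20 lower (0.818) and Sparc 0.13 lower (0.598), and Fn1 differed by -0.01 (interval -0.31 to 0.29).

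The interaction subtracts the effect of doxycycline in uninhibited cells from its effect in inhibited cells. It was called by limma for 0 of the 9 members, against 0.895% of clusters. An unadjusted limma p under 0.05 was reached by 3 of them, Thbs2, Ccn1 and Ccn4, and by 11.4% of clusters. The values ran from -0.54 for Postn to 0.76 for Ccn1, and the lowest adjusted p was 0.0799, for Thbs2. No member passed the test of a different response to doxycycline with and without SB203580.

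Lists of related genes, written with earlier results of these data known, place the members among their neighbours in SB against control. Matricellular relatives outside the 10, such as other thrombospondins, tenascins, fibulins and SPARC-like proteins, numbered 23 measured, of which 3 were lower, 2 higher and 18 did not pass, with a median of 0.00. The shares over all clusters were 3.87% lower and 2.51% higher. Fbln5, an elastic fibre protein, was 2.14-fold lower (limma adjusted p = 0.024). It no longer passed when control replicate 3, SB replicate 1 or SB replicate 3 was left out (limma adjusted p = 0.0839, 0.0594 and 0.0736). Ecm1 was 1.9-fold and the testican gene Spock2 1.45-fold lower (limma adjusted p = 2.06e-04 and 6.51e-04).

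Of 17 receptors for these proteins 6 fell and 0 rose, with a median of -0.11. Itgb6, an integrin chain that pairs with αv to bind fibronectin and latent TGF-beta, was 2.19-fold lower, Lrp1, an endocytic receptor of thrombospondin 1 and CCN2, 1.7-fold, and Itgb3 1.5-fold lower (limma adjusted p = 0.00425, 0.00249 and 0.003). Itgb6 averaged 5.86 in control and 4.73 in SB, the latter below the lowest array median of 4.86. Of 20 YAP-TEAD targets other than the CCN genes 6 fell and 0 rose, with a median of -0.21. Gadd45b was 2.24-fold, the muscle ankyrin repeat gene Ankrd1 1.98-fold and the LIM protein gene Ajuba 1.78-fold lower (limma adjusted p = 7.91e-04, 0.00121 and 0.00201).

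TGF-beta and SMAD targets had 9 of 13 lower and 0 higher, with a median of -0.95. Col1a1, the main chain of collagen I, was 5.6-fold lower, and the SMAD feedback genes Pmepa1 and Skil were 3.17-fold and 3.01-fold lower (limma adjusted p = 6.10e-05, 5.09e-06 and 1.06e-05). Targets of serum response factor and its actin-sensing partner MRTF had 9 of 14 lower and 0 higher, with a median of -0.61. Actg2 was 4.36-fold, Tagln 3.77-fold and Myl9 3.46-fold lower (limma adjusted p = 7.21e-06, 0.00131 and 0.00514); all 3 belong to smooth muscle contraction or its cytoskeleton.

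In SB+Dox against SB, where 4.4% of all clusters were called higher and 2.71% lower, matricellular relatives had 1 of 23 higher and 3 lower, with Fbln5 2.74-fold higher and Fstl1 and Emilin1 1.59-fold and 1.54-fold lower (limma adjusted p = 0.00419, 0.00977 and 0.0018). Receptors had 1 of 17 higher, the fibronectin receptor chain Itga5, 1.33-fold (limma adjusted p = 0.0243), a call lost when SB replicate 2, SB+Dox replicate 1 or SB+Dox replicate 3 was left out (0.115, 0.081 and 0.133). YAP-TEAD targets had 2 of 20 higher, Ankrd1 2.06-fold and the kinase gene Lats2 1.41-fold (limma adjusted p = 9.08e-04 and 0.00334). TGF-beta and SMAD targets had 4 of 13 higher and 1 lower: Skil was 1.81-fold and Tgif1 1.57-fold higher, and Col3a1 1.95-fold lower (limma adjusted p = 0.0018, 0.0132 and 0.001). SRF-MRTF targets had 2 of 14 higher, Tagln 2.79-fold and Actg2 1.66-fold (limma adjusted p = 0.0071 and 0.0194). The calls of Tgif1 and Actg2 were each lost without SB replicate 1 (0.0638 and 0.0984) or SB+Dox replicate 3 (0.0825 and 0.112), and that of Tgif1 without SB replicate 2 (0.0544).

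**Figure D4:**
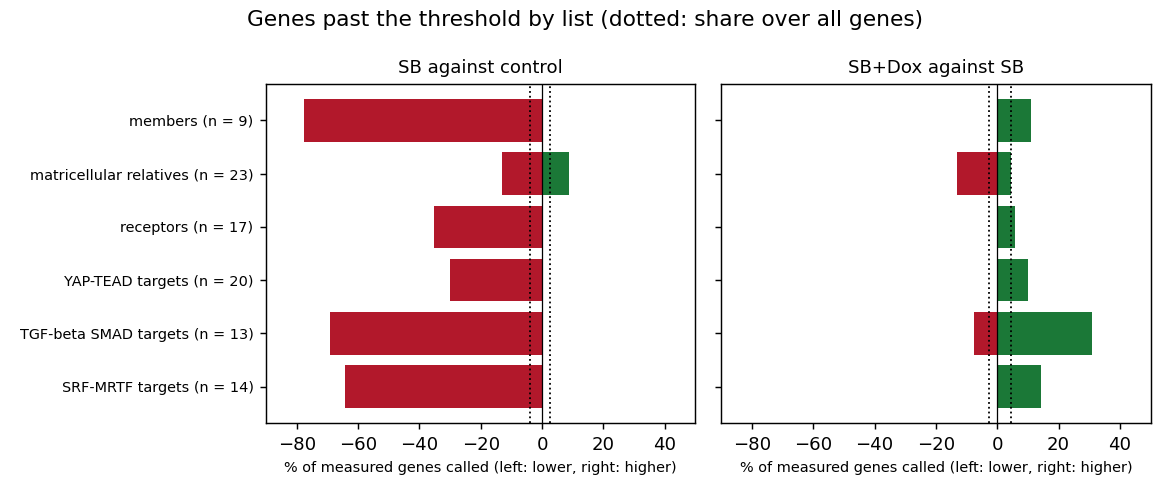
Percent of the measured genes of each list called lower (red, to the left) or higher (green, to the right) in SB against control and in SB+Dox against SB; dotted lines give the share over all genes. In SB against control 7 of 9 members, 9 of 13 TGF-beta and SMAD targets and 9 of 14 SRF-MRTF targets were lower, against 3 of 23 matricellular relatives.

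Across the 12 arrays Thbs1, Postn, Ccn4, Ccn2, Fn1 and Tnc were closely correlated, and the other members less so. The correlation of Thbs1 was 0.96 with Postn, 0.96 with Ccn4, 0.93 with Ccn2, 0.93 with Fn1 and 0.92 with Tnc. It was 0.69 with Sparc, 0.50 with Ccn1 and 0.17 with Thbs2. Sparc stood between, at 0.84 with Tnc and 0.84 with Fn1. These coefficients share the 4 group means. With group means removed, Thbs1 still correlated at 0.89 with Ccn4 and 0.72 with Tnc. Its coefficients with Postn, Fn1 and Ccn2 were then 0.36, 0.37 and 0.15. Postn correlated at 0.86 with Fn1, and Ccn1 at 0.87 with Ccn2. The last pair had 0.56 before group means were removed. With group means removed, 0.89, 0.87, 0.86 and 0.72 were the highest coefficients over all pairs of members.

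Among 8603 other genes with an SD over the arrays above the median, those whose signal over the 12 arrays was most like a member's are given as a description. Pmepa1 was nearest to Thbs1 (r = 0.99), followed by Mustn1 and Fndc3b. Tnc was followed most closely by Frmd4a, Tgfb1i1 and Cd200 (r = 0.97 to 0.98). Postn was nearest to Stom, Marchf11 and Rdh5, and Ccn4 to Fzd2, Crip2 and Marchf11 (r from 0.98 in both sets). Fn1 was nearest to Lmo7, then to the collagen cross-linking enzyme gene Lox and the metalloprotease inhibitor gene Timp1. Ccn1 was nearest to Ier2, an immediate early gene (r = 0.93), and Ccn2 to the myoglobin gene Mb (r = 0.97). For Sparc the nearest was Ifitm3 (r = 0.96), and for Thbs2 no gene exceeded 0.91, the value of Slco6b1. The group means of Slco6b1 ran from 2.28 in Dox to 2.69 in control, below the lowest array median of 4.86.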

How the data were processed

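Each of the 12 samples was hybridised to 1 Affymetrix mouse array. The deposited values are log2 signals, 1 per transcript cluster, made by the authors with RMA in Affymetrix Expression Console, per the submitters' processing notes; versions and build are not given in the sources used here. RMA evens out overall brightness between arrays and compresses small changes at low signal. Arrays have no read depth, so precision is limited by 3 arrays per group. Of 35557 clusters, 21789 had 1 gene symbol in the platform annotation, 1621 several and 12147 none; 21698 of the first were matched by Entrez ID to the RefSeq GRCm38.p6 gene table, which gave the listed symbol in each case. Array medians were 4.86 to 5.06.

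The one-symbol clusters were fitted with limma 3.58.1 in R 4.3.3 (1 mean per group, all 12 arrays, eBayes), giving 6 comparisons, each with Benjamini-Hochberg adjustment and a threshold of 0.05. A gene with several clusters was represented by the one with the highest mean. All 10 members were to be named, and from each other list up to 3 called genes with the largest change in SB against control and in SB+Dox against SB. The search for genes most like a member skipped predicted genes, small RNAs and olfactory receptors. The members and lists were chosen with earlier results of these data known. The fit was tested on simulated data.

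Replicate numbers were checked as pairs by correlating deviations from group means between same-numbered arrays. Between SB and SB+Dox the coefficients were 0.436, 0.194 and 0.493, and each SB array was most like the SB+Dox array of its own number. The same held between Dox and SB+Dox, at 0.088, 0.282 and 0.148. In the 5 pairs of groups other than SB and SB+Dox, at least 1 number was under 0.1. The sample titles give only the number, so what same-numbered arrays share is not known. Alternatives were a replicate block (fixed or random), quantile normalisation, median centring, filters on low signal, eBayes options, array weights, all clusters, a 1.5-fold minimum, 2 groups alone and leaving out each array. Spp1 was not analysed here.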

Additional observations from a re-analysis of the deposited data

Results flagged for a closer look

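Of the members and the list genes named here, 6 were flagged. In some the responses to doxycycline and SB203580 depended on each other by a limma interaction test. In the rest every array moved one way under one condition and the opposite way under the other. The interaction was called for 0 of 9 members, 1 of 20 YAP-TEAD targets and 3 of 13 TGF-beta and SMAD targets. It was called for no gene of the matricellular relatives, receptors or SRF-MRTF targets, and for 0.895% of all clusters. The interaction is the log2 effect of doxycycline with SB203580 minus that without, and equally the effect of SB203580 with doxycycline minus that without. Among the members Thbs2 was flagged, with an interaction of 0.67 on the log2 scale (SE 0.16, limma adjusted p = 0.0799): all Dox arrays lay below control, and all SB+Dox arrays lay above SB. The test of the difference did not pass. For the YAP-TEAD target Ankrd1 the interaction was 0.98 (SE 0.21, limma adjusted p = 0.0498) and for the collagen gene Col1a1 it was 1.78 (SE 0.38, limma adjusted p = 0.0434), and both passed. Ankrd1 changed by 0.07 in Dox against control and by 1.04 in SB+Dox against SB. Col1a1 changed by -2.21 and -0.43 in these comparisons, so it did not rise with doxycycline in either. For the collagen gene Col3a1 the interaction was 0.88 (SE 0.20, limma adjusted p = 0.058), short of the threshold. Col3a1 was lower with doxycycline in both conditions (-1.84 in Dox against control and -0.96 in SB+Dox against SB), whereas with SB203580 all arrays were lower than control without doxycycline (-0.33) and higher than Dox with it (0.55). The TGF-beta and SMAD list genes Ltbp2 and Ldlrad4, named here after their values were seen, had interactions of the opposite sign, -1.34 (SE 0.20, limma adjusted p = 0.0101) and -0.77 (SE 0.16, limma adjusted p = 0.039). Ltbp2 was higher in Dox than in control (1.16) and changed by -0.18 in SB+Dox against SB, where its arrays overlapped. For Ldlrad4 all Dox arrays lay above control (0.43) and all SB+Dox arrays below SB (-0.34). The interactions of list genes were not tried in the alternative fits. Over all clusters, interaction calls numbered 195 here and ran from 6 to 678 in those fits. Groups of 3 arrays were too small to look for single outlying arrays.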

How the results depend on the processing

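Over 24 alternatives, 1231 of 1287 values for single members kept their direction and side of the threshold, 16 lost the call, 19 gained it and 21 changed sign, all of the last being changes near 0 that were never called. The number of members called in SB against control ran from 6 to 9 and in SB+Dox against control from 6 to 7. In SB+Dox against SB it was 1, and 0 with only the 2 groups compared and, among fits leaving out 1 array, 0 to 1. In Dox against control it was 3, falling to 1 when at least 1.5-fold was also asked for, and 0 to 4 leaving out 1 array. For the interaction it was 1, Thbs2, after centring each array on its median, after leaving out clusters under the 50th percentile, and with array weights (limma adjusted p = 0.0415, 0.0401 and 0.0418). With the replicate block, 8 members were called in SB against control, 4 in Dox against control and 1 in SB+Dox against SB; the pairing changed no member's call in the last, the only paired groups. Over all clusters, the counts ran from 683 to 2794 in SB against control, 724 to 3076 in SB+Dox against SB, 1099 to 3019 in SB+Dox against Dox, 669 to 1831 in Dox against control, 569 to 1935 in SB+Dox against control and 6 to 678 for the interaction.

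Sign changes in SB+Dox against SB were Tnc -0.060, Ccn4 -0.039 and Fn1 -0.014 after quantile normalisation, Sparc 0.029 after median centring and Ccn2 -0.047 with array weights. Leaving out 1 array gave, in that comparison, -0.18 to 0.21 for Tnc, -0.039 to 0.25 for Ccn2, -0.039 to 0.15 for Ccn4, -0.084 to 0.0062 for Sparc and -0.14 to 0.19 for Fn1. It gave -0.13 to 0.23 for Ccn1 in SB+Dox against Dox, -0.36 to 0.043 for Ccn1 in SB+Dox against control, -0.052 to 0.031 for Fn1 in Dox against control and -0.14 to 0.19 for Fn1 in the interaction. The share regained ran from -7.1% to 7.89% for Tnc, -3.29% to 16.79% for Ccn2, -5.21% to 18.28% for Ccn4 and -14.95% to 14.34% for Fn1. Ccn1 minus Ccn4 ran from 0.66 to 0.92, and Ccn2 minus Ccn4 from -0.48 to -0.27. The causes were not tested. Another cluster of the same gene could not be tried for the members, which had 1 each.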
